A study of Mus musculus with 4 samples.

Results

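The nuclear genes that encode subunits of the oxidative phosphorylation complexes were examined in mammary tumours of mice with 2 or 1 intact copies of Elf5. A gene was taken when its symbol begins with Nduf (complex I, the assembly factors named Ndufaf left out), Uqcr (complex III), Cox4 to Cox8 (complex IV) or Atp5 (complex V) and the annotation calls it protein coding. This gave 81 of the 51826 genes in the table, 38 for complex I, 8 for complex III, 18 for complex IV and 17 for complex V. Expression values played no part in the choice. The rule takes in Atp5s, which encodes a coupling factor associated with the ATP synthase, and Ndufa4, whose product is now placed in complex IV. It leaves out Cyc1, the cytochrome c1 of complex III, which is among the carriers described further on.

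All 4 tumours were C3-T+, a tumour model whose transgene the labels do not spell out further. Of these, 2 were Elf5+/+ (WT 1 and WT 2) and 2 were Elf5+/- (HET 1 and HET 2), so the HET tumours kept an intact Elf5 copy and were no null. Both HET titles carry the same leading number and end in T1 and T2, while the WT titles carry different ones. The labels do not say whether that number is an animal, so HET 1 and HET 2 could be tumours of the same mouse, and p-values then reflect the spread among these samples alone, which may not be that among animals. Age and strain background do not appear in the labels. The tumours were digested with collagenase and hyaluronidase, and tumour cells were enriched before RNA extraction by sorting with antibodies to leukocyte CD45, endothelial CD31 and erythroid TER119.

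The libraries held 12695132 to 15307939 estimated counts. Elf5, an ETS transcription factor of the luminal mammary lineage and the gene targeted here, stood at 35.5 CPM (counts scaled to one library size by TMM) in WT 1, at 4.68 for the library labelled WT 2, at 5.36 for HET 1 and at 10.6 for HET 2. The library labelled WT 2 thus lay below both HET libraries, against its label. It also stood apart in other ways. Genes without a count made up 44.5% of all, where the other libraries had 29.9% to 31.3%, and its 6 fibroblast markers summed to 21442 CPM against 3803 to 6395. Its 6 leukocyte markers summed to 7.23 CPM against 185.2 to 229.8, and its 6 endothelial markers to 69.2 against 283.1 to 492.9. The 7 epithelial markers, with Epcam, Krt8 and Krt18 among them, summed to 3559 and 3138 CPM in the WT libraries and to 2338 and 2202 in the HET libraries. None of the epithelial, fibroblast, leukocyte or endothelial markers was at 0 in any library, so RNA of all these marker genes was in the sorted material. Which cells it came from was not tested.

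Oxidative phosphorylation is carried out in the inner mitochondrial membrane. Complex I takes electrons from NADH, complex III passes them from ubiquinol to cytochrome c, and complex IV hands them to oxygen. All of them move protons across the membrane, and complex V, the ATP synthase, lets protons flow back to make ATP. A small part of the subunits is encoded in the mitochondrial genome and the rest in the nucleus, so that the complexes need both sets. Nuclear subunit genes are known for their coordinated expression across tissues. Their promoters are often short of a TATA box and hold sites for the factors NRF1, GABP (an ETS factor), YY1 and the oestrogen-related receptors, with PGC-1 coactivators acting on several of these.

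The promoters of the subunit genes were searched for the sites that have been tied to such genes. RefSeq windows (GRCm38.p6, 250 bases before to 50 after each start) were found for 64 of the 81 genes, against 17492 protein-coding genes in all. Both strands were searched. The ETS core CCGGAAG was in the windows of 14 subunit genes (21.9%, against 12.9% of all protein-coding genes with a window). The NRF1 site GCGCATGC, whose forward and reverse matches can overlap by several bases, was in 9 (14.1% against 3.94%), and the YY1 site AAGATGGCG was in 7 (10.9% against 2.14%). The site of the oestrogen-related receptors, TCAAGGTCA, was in 1 gene, Atp5g3 (1.56% against 0.377%). The letters GGGCGG, bound by SP factors, were in 25 (39.1% against 49.2%), and TATAAA was in 7 (10.9% against 14.8%). The ETS core ends and the YY1 site begins with AAG, so neighbouring matches of both can share those letters. A match describes letters and shows no binding.

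The stretches printed next show what such matches look like in genes of each complex, and each was trimmed to bases outside every annotated exon. Uqcr11, chr10:80406831-80406947 (minus strand), Uqcrh, chr4:116075072-116075140 (minus strand), and Atp5e, chr2:174464137-174464263 (minus strand), hold the ETS core. Ndufa6, chr15:82354323-82354434 (minus strand), Ndufa11, chr17:56717686-56717761 (plus strand), and Cox6a1, chr5:115349051-115349129 (minus strand), hold the NRF1 site. Atp5l, chr9:44920888-44920992 (minus strand), holds both, and Atp5g3, chr2:73911327-73911438 (minus strand), holds the oestrogen-related receptor site. They are written 5′ to 3′ on the gene's strand, credited to RefSeq, with the matches to these 3 motifs in capitals, in either orientation. In Uqcr11 the match begins 66 bases before the start, and in Uqcrh 10 bases before it.
Uqcr11: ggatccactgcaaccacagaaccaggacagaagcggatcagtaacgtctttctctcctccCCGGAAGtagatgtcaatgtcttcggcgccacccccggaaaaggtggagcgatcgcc
Uqcrh: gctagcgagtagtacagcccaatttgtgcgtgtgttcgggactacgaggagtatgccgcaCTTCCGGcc
Atp5e: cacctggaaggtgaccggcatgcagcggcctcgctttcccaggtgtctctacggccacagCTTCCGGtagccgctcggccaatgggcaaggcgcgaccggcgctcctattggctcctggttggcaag
Ndufa6: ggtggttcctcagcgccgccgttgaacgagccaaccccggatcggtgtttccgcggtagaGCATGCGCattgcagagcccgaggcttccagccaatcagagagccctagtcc
Ndufa11: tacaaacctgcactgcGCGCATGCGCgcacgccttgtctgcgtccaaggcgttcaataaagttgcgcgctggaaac
Cox6a1: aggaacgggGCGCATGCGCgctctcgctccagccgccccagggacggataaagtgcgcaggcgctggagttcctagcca
Atp5l: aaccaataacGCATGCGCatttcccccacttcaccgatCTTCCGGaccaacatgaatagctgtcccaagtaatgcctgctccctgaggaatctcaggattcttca
Atp5g3: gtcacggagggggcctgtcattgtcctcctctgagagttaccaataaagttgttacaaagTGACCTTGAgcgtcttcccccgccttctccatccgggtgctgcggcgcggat

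The subunit genes held more counts in some libraries than in others, across genotypes. Summed over all of them, WT 1 had 4465 CPM, the library labelled WT 2 had 3801, HET 1 had 3227 and HET 2 had 5447, or 0.429%, 0.35%, 0.342% and 0.581% of all counts in the same order. HET 2 was highest and HET 1 lowest, with both WT libraries between them. Complex V, which includes the abundant Atp5b and Atp5a1, made up the largest part with 1753, 1580, 1260 and 2144 CPM. Complex I summed to 1462, 1150, 1020 and 1662 CPM, complex IV to 853, 654, 636 and 1121, and complex III to 397, 417, 312 and 521. In each complex HET 2 held the highest sum and HET 1 the lowest. In bulk samples, fewer cells with a high level and less RNA per cell cannot be told apart.

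Levels between genes can be set side by side only per length, here as mean CPM per kilobase of the median protein-coding transcript. On that scale the genes tested ran from 3.23 to 237.7, with a median of 55.6. Averaged over the libraries, Cox6c (237.7), Atp5h (225.9), Atp5b (224.8) and Atp5j (199.0) came first, the first named a small subunit of complex IV and the others parts of the stalk and catalytic head of the ATP synthase. Their order differed between libraries: Cox6c led in WT 1 (311.7), Atp5j in the library labelled WT 2 (255.7), Atp5h in HET 1 (202.2) and Atp5b in HET 2 (288.6). Uqcrb (174.1), Uqcrh (161.9) and Uqcrc1 (159.5) led complex III, and Cox5b (172.7) and Cox6a1 (171.7) followed Cox6c in complex IV. The leading genes of complex I lay lower, with Ndufa6 at 101.2, Ndufa5 at 84.6 and Ndufb9 at 79.3. The order depended on the length used: of the 10 highest genes, 5 were among the 10 highest with the union of all exons as length, where Cox6a1 led (139.7) and Cox6c was not among them, and 8 with the principal transcript.

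**Figure D1:**
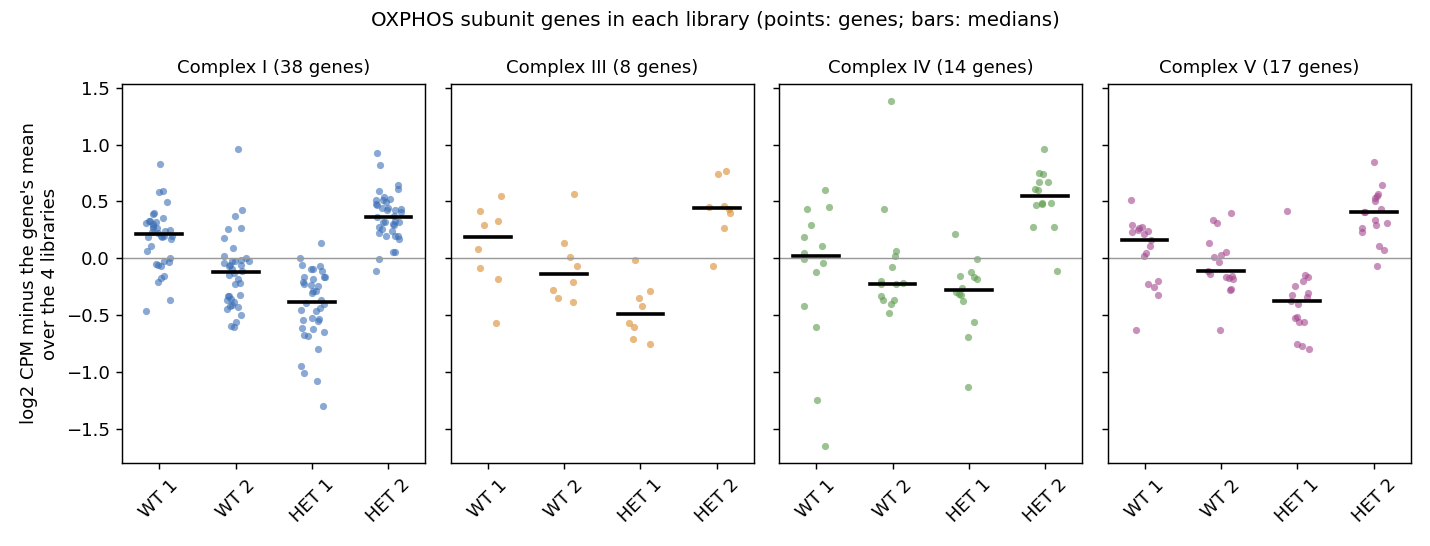
Each point is a subunit gene in a library, drawn as its log2 CPM minus the mean of that gene's log2 CPM over the 4 libraries, and each bar is the median of a complex. The median of HET 2 is the highest and that of HET 1 the lowest in all 4 complexes, so the genotypes do not separate.

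The comparison of genotypes asked which transcripts change with the loss of an Elf5 copy. No subunit gene did so by the test. Of 81 genes, 77 passed the filter on low counts, and edgeR's quasi-likelihood test called 0 of them at a Benjamini-Hochberg adjusted p under 0.05, as it called 0.0% of all 21607 genes tested. At an unadjusted p under 0.05 it also named 0 of the 77, against 817 genes or 3.78% of all. The genotype difference (HET over WT, log2 fold change) lay above 0 in 42 and below 0 in 35 genes, with a median of 0.02, where the median over all genes tested was 0.04. Summed over the genes, WT stood at 4133 ± 469 CPM and HET at 4337 ± 1570 (SD, n = 2 each), a log2 ratio of 0.07 that is smaller than the spread within HET.

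Few subunit genes had groups that do not overlap. Both HET libraries were above both WT libraries in 3 of 77 subunit genes, against 19.6% of all genes tested, and below both in 5, against 15.9%. The 3 genes with higher HET values were Ndufa1, Ndufa13 and Ndufb11, all accessory subunits of complex I. The 5 with lower values were Ndufa12, Ndufa4l2, Ndufb10, Cox7a2l and Atp5f1. Leaving out a library turned the direction of the whole set. Without HET 2 the median was -0.46 with 69 genes below 0, without HET 1 it was 0.32 with 66 above 0. Without the library labelled WT 2 it was -0.14, with 45 genes below 0, and without WT 1 it was 0.22, with 56 above. In all of these fits 0 subunit genes passed.

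**Figure D2:**
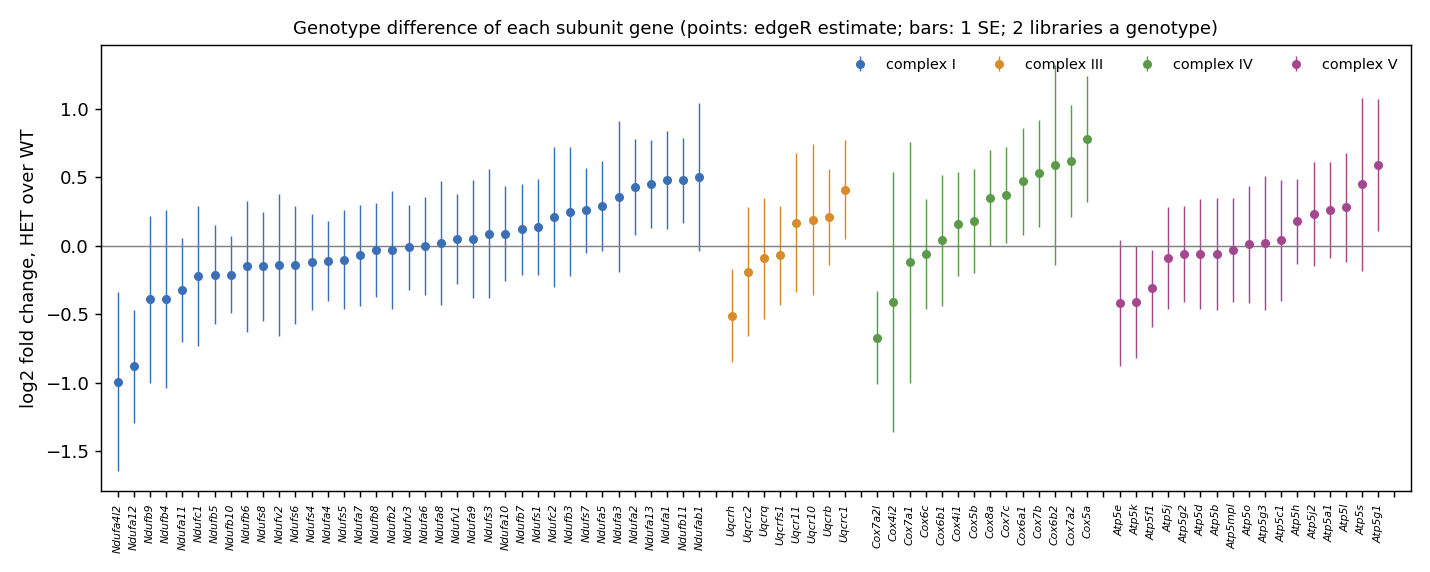
Log2 fold change of HET over WT for the subunit genes tested, 1 of the 77 left out, ordered within complexes, with points for the edgeR estimate and bars for 1 standard error. The values spread around 0, from -0.99 for Ndufa4l2 to 0.78 for Cox5a, and none passed the test.

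The difference between both HET libraries was the largest one seen in these genes. HET 2 exceeded HET 1 in 75 of 77 subunit genes, against 49.7% of all genes tested. The median log2 ratio of HET 2 to HET 1 was 0.80, with a middle range from 0.50 to 1.08, where the median over all genes was -0.00. In 73 subunit genes HET 2 was higher beyond the 95% counting interval of the ratio (27.6% of all genes), and in 0 it was lower beyond it (26.4% of all genes). The ratio was at least 1.5 in 52 subunit genes (18.5% of all genes). These intervals cover counting error only and compare 2 libraries, not conditions. HET 2 was the highest of the 4 libraries in 53 subunit genes (23.5% of all genes), HET 1 the lowest in 44 (23.2%), and both held in 28 (6.33%). As Elf5 genotype and title number were the same in both libraries, neither separates them.

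The shift ran through all complexes. HET 2 was higher in 37 of 38 genes of complex I (median log2 ratio 0.72), 8 of 8 of complex III (0.87), 14 of 14 tested of complex IV (0.83) and 16 of 17 of complex V (0.93). The exceptions were Ndufb10, with 45.2 CPM in HET 1 and 44.5 in HET 2, and Atp5s, with 3.10 and 2.44. For the summed level, HET 2 held 1.69 times HET 1, and the ratio lay between 1.63 and 1.74 under the 5 scalings tried. Other pairs of libraries differed less: the median log2 ratio over the subunit genes was -0.33 for the library labelled WT 2 over WT 1, with 23 of 77 higher. HET 1 lay below WT 1 (median -0.51, 12 higher) and the library labelled WT 2 (-0.25, 24 higher), and HET 2 lay above both (0.29 with 59 higher, and 0.53 with 66 higher).

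**Figure D3:**
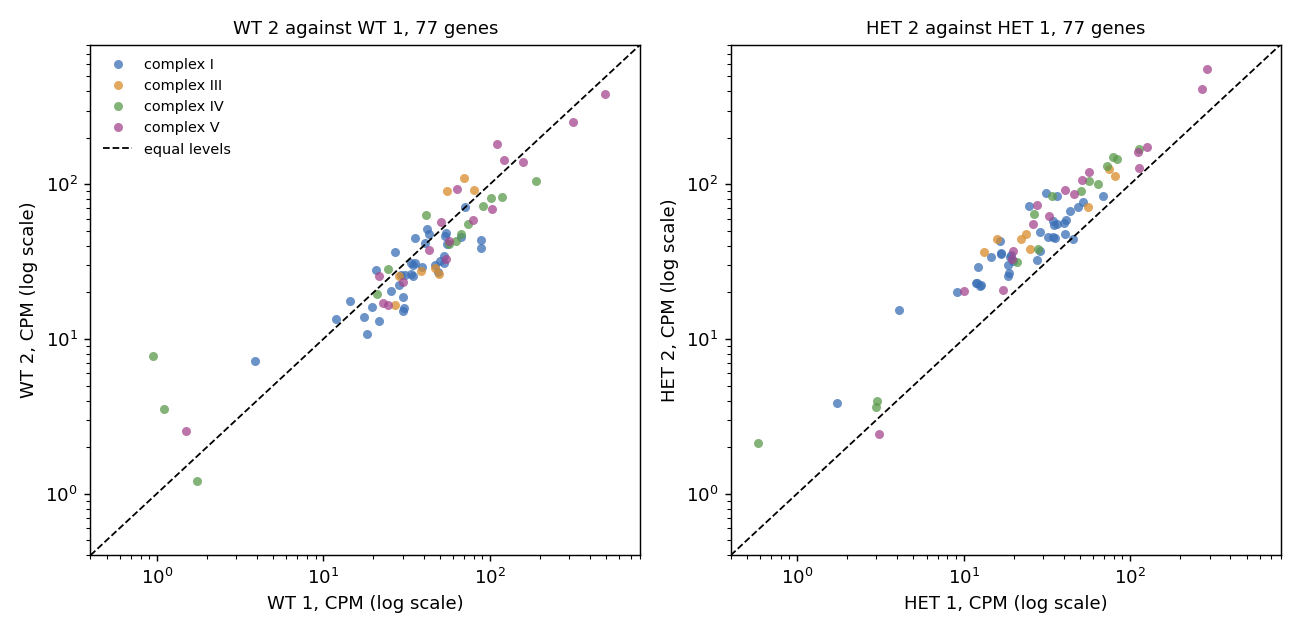
CPM of the 77 subunit genes tested in both libraries of a genotype, on log axes, with the dashed line at equal levels. In HET, 75 genes lie above the line, and in WT 23 do.

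The core of complex I is formed by 7 nuclear subunits that carry the flavin and the iron-sulphur clusters or line the quinone site. They summed to 357.3 CPM for WT 1, 263.0 for the library labelled WT 2, 248.9 for HET 1 and 389.1 for HET 2, and unlabelled values in the following run in that order. Ndufv2, the iron-sulphur partner of the NADH-binding subunit, was at 88.5, 43.5, 36.6 and 83.6 CPM. WT 1 and HET 2 were thus about equally high and the other pair low, across genotypes. Ndufs3 differed most between the HET libraries (log2 ratio 1.21), but 55.0% of its transcript sequence, in words of 31 bases, is shared with other genes, and its counts depend on how reads were divided.

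Of the accessory subunits of complex I, Ndufa12 had the smallest unadjusted p of all subunit genes. It was at 34.6 and 29.9 CPM in the WT libraries and at 12 and 23.1 in HET 1 and HET 2. The groups did not overlap, the log2 fold change was -0.88 ± 0.41 (SE), and the adjusted p of 0.986 in edgeR did not pass (unadjusted 0.0738). Leaving out HET 1 or HET 2 moved it to -0.53 or -1.49. Other genes share 30.0% of the sequence words of Ndufa12, so its counts depend on how reads were divided. Ndufa11, a subunit of the membrane arm, was at 35.3, 30.8, 18.9 and 34.1 CPM, where only HET 1 was low (log2 fold change -0.32, unadjusted p = 0.432 in edgeR), and its value without HET 1 was -0.01. Ndufb10 was at 54.9 and 48.8 CPM in the WT libraries, just above both HET values given earlier (-0.21, unadjusted p = 0.477 in edgeR).

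The 3 accessory genes with higher HET values had small differences. Ndufb11, on the X chromosome as is Ndufa1, was at 26.9 and 36.5 CPM in WT against 40.8 and 47.8 in HET. Ndufa13, also known as GRIM-19, was at 42.1 and 51.6 CPM in WT against 51.9 and 76.4 in HET, so that its middle values nearly touch. Ndufa1 was at 17.6 and 13.9 CPM in WT against 18.5 and 25.6 in HET. Their log2 fold changes were 0.48 ± 0.31, 0.45 ± 0.32 and 0.48 ± 0.36 (SE), with unadjusted p of 0.17, 0.21 and 0.229 in edgeR and an adjusted p of 0.986 each. Without HET 2 they were 0.29, 0.08 and 0.17 in the same order. Other genes share 29.0% of the sequence words of Ndufb11, 33.2% of those of Ndufa13 and 2.06% of those of Ndufa1.

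Between the HET libraries, accessory subunits spread widely. Ndufb4, named for its ratio after the values were seen, was at 12 and 13.4 CPM in WT, 4.07 in HET 1 and 15.3 in HET 2, a ratio of 3.74 (95% counting interval 2.82 to 5.06). The low value was HET 1, and the other libraries lay close together. Of the sequence words of Ndufb4, 38.3% are shared with other genes, most with Ndufb4c, so its counts depend on how reads were divided. Ndufb9 was at 87.9, 38.7, 24.6 and 72.1 CPM (log2 ratio of the HET libraries 1.55). Ndufab1, the mitochondrial acyl carrier protein, was at 52.7, 31.1, 31.3 and 87.3 CPM (1.48), where HET 2 was high and 2 libraries of opposite genotype were equally low. Ndufa6 was at 47.1, 30.1, 32.0 and 45.4 CPM, and Ndufa5 at 42.9, 47.6, 43.6 and 67.2. In Ndufa5 HET 2 alone stood out, and in Ndufa6 WT 1 and HET 2 did.

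In complex III, the core proteins Uqcrc1 and Uqcrc2 did not follow each other across libraries. Uqcrc1 was at 55.5, 90.2, 81.4 and 112.9 CPM. Uqcrc2 was at 49.3, 26.5, 22.2 and 44.4 CPM, so the library labelled WT 2 was higher than WT 1 for the one and lower for the other. Uqcrfs1, the Rieske iron-sulphur protein, was at 38.7, 27.4, 24.9 and 38.2 CPM. For genotype, Uqcrc1 gave a log2 fold change of 0.41 ± 0.36 (SE) and Uqcrc2 -0.19 ± 0.47, with adjusted p of 0.986 and 0.991 in edgeR. Leaving out a library moved Uqcrc1 between 0.08, without HET 2, and 0.81, without the library labelled WT 2.

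The 5 small subunits of complex III summed to 253.2, 272.9, 183.2 and 325.1 CPM. HET 1 was the lowest library in each of the 5. Uqcr11 had the highest ratio of HET 2 to HET 1 in the complex, with 28.3, 25.5, 15.8 and 44.6 CPM (log2 ratio 1.5), and Uqcr10 followed with 27.0, 16.5, 13.2 and 36.6 (1.47). Both small proteins sit at the membrane part of the complex. Uqcrq was at 47.0, 28.9, 23.7 and 47.5 CPM, again with WT 1 and HET 2 at one level. Uqcrb was at 80.7, 92.1, 74.7 and 125.2 CPM, with 58.2% of its sequence words shared with other genes. Uqcrh, the hinge protein near cytochrome c1, was highest in the library labelled WT 2, with 70.3, 110.1, 55.8 and 71.2 CPM. It had the smallest unadjusted p of the complex, 0.188 in edgeR, with a log2 fold change of -0.51 ± 0.34 (SE) with HET 2 just above WT 1. Without the library labelled WT 2 this value was -0.15, and without WT 1 it was -0.79.

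The widely expressed subunits of complex IV all shifted the same way between the HET libraries. The 10 genes summed to 786.6, 598.1, 600.8 and 1072 CPM, and all 10 were higher in HET 2, with log2 ratios from 0.57 for Cox6c to 1.31 for Cox6b1. HET 2 was the highest library in 9 of them. Cox4i1, the largest nuclear subunit, was at 102.2, 81.3, 73.0 and 132.3 CPM. Cox5b, which binds zinc, was at 119.0, 83.3, 83.7 and 145.6 CPM, and Cox6a1 was at 91.3, 72.8, 78.5 and 149.6. In Cox4i1, Cox5b and Cox6a1, HET 2 was the highest library and WT 1 came next, with the library labelled WT 2 and HET 1 lower. That order was not general, as WT 1 was the lowest library in Cox5a and Cox7a2. Cox6c was the gene of the 10 in which HET 2 was not highest, with 188.9 CPM in WT 1 as the highest value, then 105.4, 113.5 and 168.5.

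The genotype estimates of these 10 genes were above 0 in 9, with a median of 0.36, and rested on HET 2. Over all 14 genes of complex IV tested, 10 were above 0 (median 0.26), against 52.7% of all genes tested (median 0.04). Cox5a had the highest, 0.78 ± 0.46 (SE), with 24.6, 28.2, 26.5 and 64.2 CPM and an unadjusted p of 0.141 in edgeR. Only HET 2 was high, and without it the log2 fold change of Cox5a was -0.07. Other genes share 47.2% of the sequence words of Cox5a. Cox7a2 was at 41.2, 63.5, 56.3 and 104.9 CPM (0.62 ± 0.41), and Cox7b at 57.1, 41.0, 50.5 and 91.1 CPM (0.53 ± 0.39). Both have HET 1 between or near the WT values. Without HET 2 the values for Cox7a2 and Cox7b were 0.02 and -0.01.

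The catalytic head and central stalk of the ATP synthase are encoded by 5 of the genes, which summed to 1017, 784.8, 671.3 and 1198 CPM. Atp5b, the catalytic beta subunit, was at 493.4, 386.4, 289.9 and 553.0 CPM, a ratio of 1.91 between the HET libraries (95% counting interval 1.84 to 1.98). Its partner in the head, Atp5a1, was at 317.2, 253.5, 268.7 and 416.3 CPM. For the first HET 1 was the lowest library, for the other the library labelled WT 2 was. Atp5e, the smallest part of the central stalk, was at 24.3, 16.6, 10.1 and 20.5 CPM (log2 fold change -0.42 ± 0.46, unadjusted p = 0.401 in edgeR), and the estimate ran from -1.07 without HET 2 to -0.04 without HET 1.

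The peripheral stalk holds the head in place. Its 4 genes summed to 453.8, 556.7, 401.6 and 569.7 CPM, a ratio of 1.42 between the HET libraries, and the library labelled WT 2 was above WT 1. Atp5j was at 110.2, 181.8, 111.8 and 162.0 CPM, with 2 high libraries of opposite genotype. Atp5h was at 122.1, 142.8, 126.4 and 173.6 CPM, and its HET 1 value lay between both WT values. Atp5f1 was at 158.1 and 138.4 CPM in WT against 112.4 and 127.2 in HET. Its groups did not overlap, but the log2 fold change of -0.31 ± 0.28 (SE) did not pass (unadjusted p = 0.317, adjusted p = 0.986 in edgeR). Other genes share 46.7% of the sequence words of Atp5f1 and 49.4% of those of Atp5h, so their counts depend on how reads were divided.

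The 4 membrane accessory genes of the ATP synthase, Atp5s not among them, were higher in HET 2 than in HET 1 in all cases. Atp5k was at 50.8, 57.4, 26.1 and 55.6 CPM, where HET 1 alone was low (log2 fold change -0.41 ± 0.41, and -0.02 without HET 1). Atp5l was at 21.5, 25.4, 19.9 and 37.2 CPM, with HET 2 high (0.28 ± 0.40). The sequence of Atp5l is shared with other genes to 85.4%, so its level is uncertain. Atp5s, at 1.5, 2.55, 3.10 and 2.44 CPM, was the one gene of the 77 in which HET 1 was the highest library.

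Several subunits have alternative isoforms with tissue-restricted expression, and the sorted tumours used mainly the common ones. Cox4i2, known from lung and from oxygen-sensing cells, was at 0.951, 7.80, 2.97 and 3.62 CPM and was highest in the library labelled WT 2. The 7 markers of pericytes, cells that also express Cox4i2, summed to 321.5, 616.7, 341.9 and 389.4 CPM, with none at 0 in any library. Their sum was likewise highest in the library labelled WT 2. So were Rgs5 (91.3, 188.6, 103.3 and 153.3 CPM), Pdgfrb (92.0, 192.9, 87.8 and 85.3) and Notch3 (62.0, 103.5, 59.0 and 59.6). Higd1b, which had too few counts to pass the filter, was highest in HET 2 (0.554, 0.638, 0.517 and 1.48 CPM). The remaining pericyte markers are not given singly. The sum of the fibroblast markers was also highest in the library labelled WT 2. The part of these cells in the Cox4i2 values was not tested. The genotype estimate of Cox4i2 was -0.41 ± 0.95 (SE) and was 1.78 without the library labelled WT 2. Cox7a1, the heart and skeletal muscle form, was at 1.74, 1.21, 0.582 and 2.14 CPM, far under Cox7a2. The 7 skeletal muscle markers summed to 14.8, 2.13, 8.73 and 3.92 CPM, with 3 of them at 0 in the library labelled WT 2. The part of muscle in the Cox7a1 values, which rest on 9 to 29 counts per library, was not tested.

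Other restricted forms were close to absent. Cox6a2, the muscle form, had 3, 0, 4 and 9 counts, and Cox8b, also a muscle form, had 2, 2, 0 and 4. Of the forms known from testis, Cox7b2 had 1 count, in WT 1, and Cox8c had 0 in all 4 libraries, which allows up to 3 counts per library. Cox6b2, likewise described in testis, was above this level, at 1.11, 3.55, 3.04 and 3.99 CPM, with a log2 fold change of 0.59 ± 0.73 (SE). The 5 male germ cell markers summed to 0.0709 to 1.27 CPM, with Tnp1 at 0 in all libraries. These 4 genes with few counts, Cox6a2, Cox7b2, Cox8b and Cox8c, are the ones that did not pass the filter.

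Ndufa4l2, a paralogue of Ndufa4 known as a hypoxia-induced gene, was at 3.88 and 7.23 CPM in WT against 1.75 and 3.84 in HET. Its groups touched without overlapping, and the log2 fold change of -0.99 ± 0.65 (SE) had an unadjusted p of 0.179 and an adjusted p of 0.986 in edgeR. It was -0.48 without the library labelled WT 2, -0.61 without HET 1 and -1.75 without HET 2. Ndufa4 itself was even, at 33.4, 31.2, 27.7 and 32.3 CPM. Cox7a2l, which takes part in joining complexes III and IV into supercomplexes, was at 62.4 and 43.0 CPM in WT against 27.9 and 38.1 in HET. It had the second smallest unadjusted p of the subunit genes, 0.0943 in edgeR, with -0.67 ± 0.34 (SE), an adjusted p of 0.986 and a value of -0.38 without WT 1. Its HET 2 value, too, lay below both WT values. Other genes share 23.3% of the sequence words of Cox7a2l.

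The ring of the ATP synthase is built from identical proteins encoded by 3 genes. Atp5g1 was at 54.9, 32.8, 40.8 and 91.4 CPM, and Atp5g3 at 57.0, 43.0, 27.7 and 73.7. Atp5g2 was the lowest, at 22.7, 17.1, 17.2 and 20.8 CPM, and hardly differed between the HET libraries (log2 ratio 0.28, against 1.16 for Atp5g1 and 1.41 for Atp5g3). Of its sequence, 87.7% is shared with other genes, nearly all with the gene model Gm10175, so part of its reads may have been counted elsewhere. Atp5g3 shares 0.0%. For genotype, Atp5g1 had a log2 fold change of 0.59 ± 0.48 (SE), with an unadjusted p of 0.259 in edgeR.

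**Figure D4:**
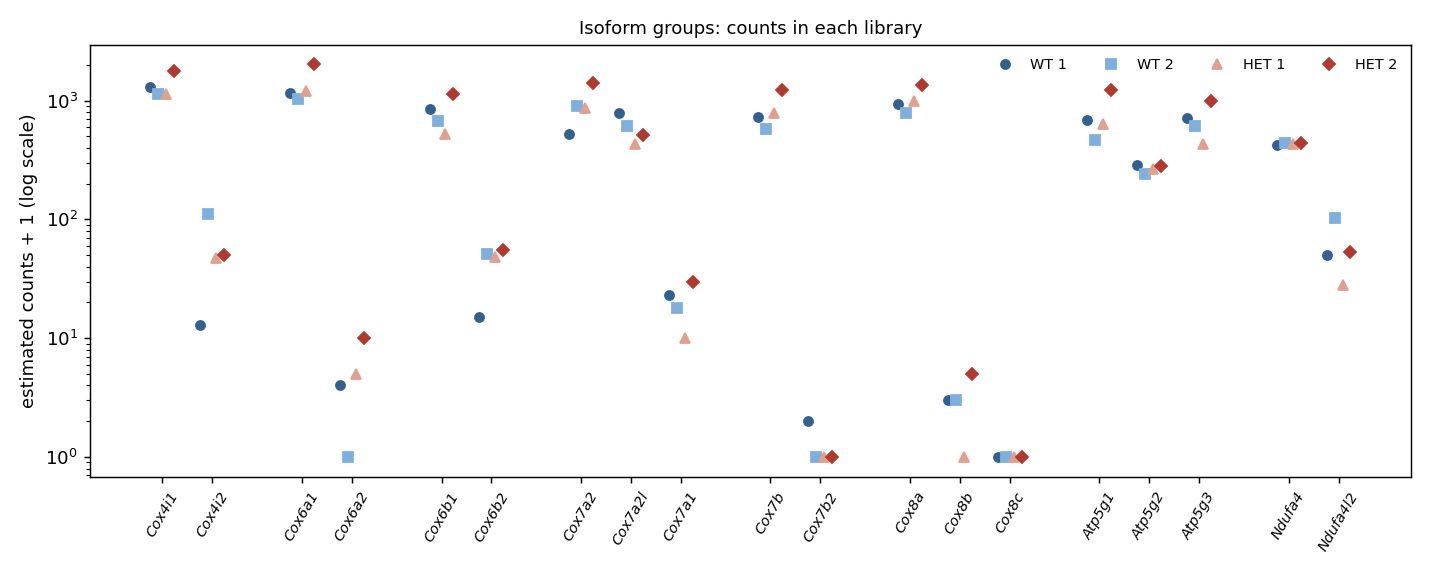
Estimated counts plus 1 on a log axis for the members of each isoform group in the 4 libraries. Each widely expressed isoform lies well above the tissue-restricted ones, Cox7a2l lies near Cox7a2, and the 3 ring genes of the ATP synthase lie within one range.

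Genes around the subunits were read in the same way. The 13 subunit genes of the mitochondrial genome, which complete the same complexes, summed to 17679, 13199, 12687 and 17186 CPM. HET 2 was higher than HET 1 in 12 of 13 tested, with a median log2 ratio of 0.33 against 0.80 in the nuclear set. WT 1 and HET 2 were the high libraries in both genomes. For the mitochondrial ribosome, HET 2 was higher in 76 of 78 genes (median 0.73). Complex II, which feeds electrons from succinate, was higher in 4 of 4 (0.65), the carriers and exchangers of the inner and outer membrane in 10 of 11 (0.67), and the tricarboxylic acid cycle in 16 of 16 (0.52). No gene of these lists passed the genotype test.

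Assembly factors, which build the complexes but are not part of them, had lower median ratios of HET 2 to HET 1 than the subunits. The median log2 ratio was 0.45 for complex I (13 of 15 tested higher in HET 2), 0.47 for complex III (5 of 6), 0.24 for complex IV (19 of 21) and 0.08 for the ATP synthase (2 of 4). The difference between these medians and those of the subunits was not tested. Glycolysis genes were higher in HET 2 in 14 of 17 (0.43). Their genotype estimates were below 0 in 15 of 17 with a median of -0.54, where 10214 of all 21607 genes tested were below 0. At an unadjusted p under 0.05 in edgeR, 3 of the 17 were lower and 1 higher in HET, against 3.78% of all genes. Hk2, the hexokinase often raised in tumours, was at 66.8 and 65.0 CPM in WT against 38.1 and 27.6 in HET (log2 fold change -1.0 ± 0.30, unadjusted p = 0.0163, adjusted p = 0.986 in edgeR). Aldoc, an aldolase of glycolysis, went the other way, at 11.9 and 11.6 CPM in WT against 19.5 and 37.5 in HET (1.28 ± 0.42, unadjusted p = 0.0225, adjusted p = 0.986 in edgeR). The groups did not overlap in either gene, and both were named for having the smallest p of the list. Over all genes tested, groups did not overlap with HET higher in 19.6% and with HET lower in 15.9%.

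The 2 genes of smallest unadjusted p in each remaining list did not pass in edgeR either. Among the assembly factors, Pet117 of complex IV was at 4.36, 7.66, 0.97 and 2.88 CPM (log2 fold change -1.64 ± 0.72) and Pet100 at 17.9, 29.9, 14.9 and 16.8 (-0.59 ± 0.39). For complex I, Timmdc1 was at 17.7, 23.6, 13.6 and 12.3 CPM (-0.67 ± 0.36) and Acad9 at 101.8, 48.4, 109.5 and 104.5 (0.51 ± 0.41), where the library labelled WT 2 alone was low. The estimates were -0.51 and -0.47 for Uqcc2 and Uqcc1 of complex III, and -0.17 each for Atpaf2 and Tmem70 of the ATP synthase.

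In the mitochondrial ribosome, Mrpl48 was at 48.1, 21.4, 64.4 and 71.3 CPM (0.97 ± 0.43) and Mrps18a at 28.0, 19.8, 10.8 and 17.3 (-0.77 ± 0.40), so the smallest p of the list lay in opposite directions. The same held for the tricarboxylic acid cycle, with Idh3g, a subunit of isocitrate dehydrogenase, at 0.76 ± 0.38 and Dlst, of the oxoglutarate dehydrogenase complex, at -0.49 ± 0.29. Sdha and Sdhc of complex II stood at -0.20 and 0.20, Cycs (cytochrome c) and Slc25a5 (an ADP/ATP carrier) at -0.46 and 0.32, and mt-Nd4l and mt-Nd1 of the mitochondrial genome at 0.30 and -0.28. All of these had an adjusted p between 0.986 and 0.991 in edgeR.

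The regulators of mitochondrial biogenesis did not move as a block. HET 2 was higher in 9 of 16, with a median log2 ratio of 0.15. Ppargc1a, which encodes PGC-1 alpha, was at 8.16, 4.26, 3.10 and 21.9 CPM, and Esrrg, an oestrogen-related receptor, at 2.53, 0.567, 1.87 and 12.6. Tfam, which packages and transcribes the mitochondrial genome, was at 29.8, 23.5, 18.2 and 37.6 CPM. In all of these HET 2 was the highest library. Yy1 went the other way, with 106.1, 107.4, 93.0 and 65.3 CPM, and Nrf1 was even, at 43.1, 46.4, 47.5 and 40.3. Ppargc1b, of the same family as Ppargc1a, was lower in HET 2 than in HET 1, at 5.54, 3.83, 6.33 and 4.58. Esrra was at 4.51, 4.04, 5.04 and 5.84 CPM, and Gabpa at 66.5, 121.0, 67.9 and 80.6 (log2 ratios of the HET libraries 0.21 and 0.25). For genotype, Esrrg gave a log2 fold change of 2.22 ± 1.11 (SE) and Ppargc1a 1.01 ± 0.90, with an adjusted p of 0.986 in edgeR for both. Ppargc1a, Ppargc1b, Esrra, Gabpa, Tfam and Nrf1 were named after their values were seen.

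The ratio of the HET libraries was also read by promoter match. HET 2 was higher in 14 of 14 genes with the ETS core (median log2 ratio 0.91), 9 of 9 with the NRF1 site (0.85) and 7 of 7 with the YY1 site (0.79). Of the 37 genes tested with a window and none of these matches, 36 were higher in HET 2, with a median of 0.81. Of the genes whose promoters are printed above, Uqcr11 (1.5) and Atp5g3 (1.41) had high log2 ratios and Uqcrh (0.35) a low one.

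**Figure D5:**
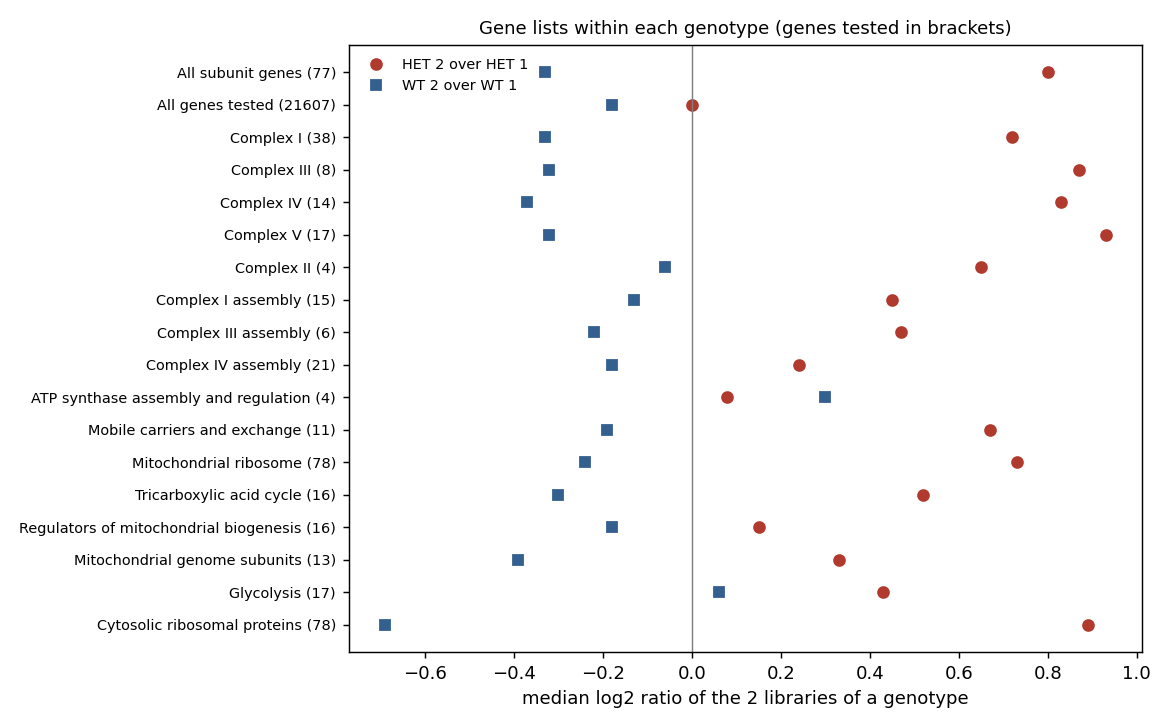
Median log2 ratio of the 2 libraries of each genotype, over the subunit genes, each complex, all genes tested and the gene lists around them, with the number of genes tested in brackets. The subunit genes lie at 0.80 for HET 2 over HET 1, where all genes lie at -0.00, and at -0.33 for WT 2 over WT 1.

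Some measures of the libraries also differed between HET 1 and HET 2. Cytosolic ribosomal protein genes, a list added after values had been seen, were higher in HET 2 in 78 of 78 tested, with a median log2 ratio of 0.89, and summed to 27196, 17286, 14059 and 25087 CPM. Mitochondrial ribosomal RNA took 9.74%, 7.26%, 7.56% and 9.90% of counts. Endothelial markers were higher in HET 2 in 5 of 6 tested, with sums of 341.6, 69.2, 283.1 and 492.9 CPM. Erythroid markers were higher in 3 of 3 tested (5.31, 1.63, 5.49 and 15.7 CPM, with 1 of 6 markers at 0 in HET 2). Macrophage markers were lower in HET 2 in all 7 (711.6, 30.2, 758.7 and 446.0 CPM). Like the subunit sum, the endothelial sum was highest in HET 2 with WT 1 next, and the erythroid sum was also highest in HET 2. The endothelial and erythroid sums were lowest in the library labelled WT 2, and the subunit sum in HET 1. The macrophage sum was highest in HET 1. HET 2 was higher in 0 of 6 leukocyte, 3 of 7 epithelial, 3 of 6 fibroblast and 0 of 4 skeletal muscle markers tested. It was higher in 4 of 6 pericyte, 2 of 3 adipocyte and 2 of 3 brown adipocyte markers tested. The part of these in the subunit values was not tested.

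Subunit transcripts are short, and short transcripts as a whole also leaned to HET 2. Among other protein-coding genes of at least 10 CPM, the median log2 ratio of HET 2 to HET 1 was 0.22 up to 500 bases, 0.18 from there to 750 bases and 0.22 to 1000 bases, and it fell to -0.06 above 3000 bases. In the same bins the 11, 33 and 13 subunit genes had medians of 1.01, 0.69 and 0.93. The limit of 10 CPM applied to the subunit genes as well. Their median lay above that of the others in each bin that held any. The bin from 1500 to 2000 bases held 1 subunit gene, however, and that from 2000 to 3000 bases held 3. The part of transcript length in the ratio of the subunit genes was not tested. Among the 40 tested subunit genes with under 10% of their words shared with other genes, 38 were higher in HET 2 (median 0.70), and among the other 37 all were (0.86).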

How the data were processed

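RNA-seq of 4 sorted tumour cell samples was read from a single deposited table. It holds estimated counts per gene in whole numbers, which the authors made with Salmon. The build is GRCm38.p5, per the submitters' processing notes. Salmon's version, the transcript annotation, strandedness and rounding step were not given in the sources used here. Groups come from the genotype labels. Identifiers were matched to GENCODE M21 with versions dropped: 51633 of 51826 matched, and 65 of the 81 subunit genes had the same version. Promoters come from RefSeq (GRCm38.p6). Rows without a gene name and columns of other samples both numbered 0.

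The genotypes were compared in edgeR 4.0.16 (R 4.3.3) with filterByExpr, TMM scaling, the quasi-likelihood F test and Benjamini-Hochberg adjustment over all 21607 genes that passed. The common coefficient of variation came to 0.46. The fit had 2 residual degrees of freedom and 4.08 prior ones. A permutation test of 2 libraries against 2 cannot give an exact two-sided p below 0.33, so p-values are the model's. Ratios of 2 libraries are of TMM-scaled counts with 0.5 added, with exact binomial intervals at 95%. Reads are not independent molecules, so intervals and the limit of 3 counts behind a count of 0 cover counting error only. The code was tested on simulated counts drawn with less spread between libraries than these data have. That checks the code and does not show the power reached here. Alternatives were DESeq2 1.42.0, limma-voom (limma 3.58.1), other scalings and filters, protein-coding genes alone, and leaving out each library, where a lone library is taken to vary as the other genotype does. The ratio of the HET libraries under other scalings and for genes with few shared words, and the principal transcript length, were added after seeing the data.

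Genes are named where they pass, or else as the 3 of highest level per length and the 3 of smallest p per direction in each complex. Isoform groups, genes with under 10 counts in all and the 2 of smallest p in each pathway list but the added ribosomal one are named too. The values of 1 subunit gene are not reported here. Further subunit genes were picked with their values in view. The genes and lists were chosen with earlier results of these data known.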

Additional observations from a re-analysis of the deposited data

How the results depend on the processing

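Under the alternatives tried, 0 subunit genes passed. Under the scalings tried, 75 or 76 of 77 were higher in HET 2, with a median log2 ratio of 0.75 to 0.84. Over all genes, edgeR called 0 at an adjusted p under 0.05 (817 at an unadjusted p under 0.05), DESeq2 called 134, edgeR without the filter called 324, and limma-voom 0. Leaving out a library gave 0 to 651 calls, 651 without WT 1 and 9 without WT 2. The causes were not tested.

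The median log2 fold change of the subunit genes ranged from -0.46 to 0.32 when a library was left out, and the log2 ratio of summed levels from -0.36 to 0.40, with the lowest of both without HET 2. Total counts in place of TMM moved the median of all genes from 0.04 to 0.22 and that of the subunit genes from 0.02 to 0.20, so the split of 42 above and 35 below became 62 and 15. With upper-quartile scaling it was 52 and 25. With genes of under 10% shared words, 38 of 40 were higher in HET 2.

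Some single genes changed sign. Uqcrq turned to 0.08 with total counts and with library sizes trimmed of mitochondrial, haemoglobin and ribosomal RNA genes, Cox6c to 0.01 with upper-quartile scaling, 0.11 with total counts and 0.10 with trimmed sizes, and Cox4i2 to 0.20 in limma-voom. Leaving out a library gave ranges of -0.28 to 0.48 for Uqcrb, -0.77 to 0.71 for Uqcr10, -0.82 to 0.33 for Uqcrc2 and -0.73 to 0.30 for Uqcrq. The ranges were -0.07 to 1.22 for Cox5a, -0.01 to 0.85 for Cox7b, -1.24 to 1.78 for Cox4i2 and -0.42 to 0.42 for Cox6c. They were -0.15 to 1.02 for Atp5g1, -0.15 to 0.50 for Atp5a1 and -0.31 to 0.60 for Atp5l.

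No paired analysis was possible because the WT replicate numbers only follow the order of the samples and pair nothing. At these depths Cox6a2, Cox7b2, Cox8b and Cox8c, with 0 to 9 counts per library, are too sparse to show differences of the size seen in the other genes.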
